A study of Mus musculus with 6 samples.

Results

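The vascular connexins are the 4 gap junction genes Gja1, Gja4, Gja5 and Gjc1, which encode Cx43, Cx37, Cx40 and Cx45. They were taken by gene symbol from the 25428 features of the arrays, 1 feature per gene, and all 4 were measured. The study set lungs of Nfat5fl/fl mice, which carry floxed alleles of the gene, against lungs of Nfat5(EC)-/- mice, in which the gene is deleted from endothelium. All mice had been held at 10% oxygen for 7 days, each group held 3 mice numbered 1, 3 and 4, and 1 lung lobe per mouse was profiled on 1 array. The sources used here do not name the promoter that drives the recombinase or the age and sex of the mice, and normoxic lungs were not analysed here. The values therefore describe the difference between genotypes under hypoxia.

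Connexins assemble into hexameric hemichannels, and hemichannels of neighbouring cells dock to form gap junction channels that pass ions and small metabolites. In arteries Cx37 and Cx40 join endothelial cells to each other and to smooth muscle, and they carry the electrical signals that spread along the vessel wall. Cx43 is found in endothelium, smooth muscle, fibroblasts, epithelium and heart muscle, and Cx45 in smooth muscle and in the cardiac conduction system. A lung lobe holds several of these cell types, so that the arrays cannot tell fewer cells of a type from less RNA per cell.

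Promoter entries for 3 of the members were found in the RefSeq table of build GRCm38.p6. The 250 bases before the annotated start are shown because NFAT5 is a transcription factor and the members did not change alike. The sequences run 5′ to 3′ on the strand of the gene. Capitals mark the GC box GGGCGG, the AP-1 motif TGAGTCA and the longest run that the Gja4 and Gja5 windows share on the same strand.
Gja4, chr4:127314040-127314289, minus strand: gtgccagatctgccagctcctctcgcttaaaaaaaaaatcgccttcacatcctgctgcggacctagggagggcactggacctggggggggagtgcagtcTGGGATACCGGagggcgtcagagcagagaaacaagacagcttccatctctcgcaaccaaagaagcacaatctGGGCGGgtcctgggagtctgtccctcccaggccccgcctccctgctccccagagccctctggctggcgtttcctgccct
Gja5, chr3:97032152-97032401, plus strand: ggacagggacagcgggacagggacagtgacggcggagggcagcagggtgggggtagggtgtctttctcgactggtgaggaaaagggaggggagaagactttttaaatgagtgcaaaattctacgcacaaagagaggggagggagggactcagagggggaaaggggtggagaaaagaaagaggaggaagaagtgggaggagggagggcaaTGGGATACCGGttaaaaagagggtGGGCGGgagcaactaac
Gja1, chr10:56377050-56377299, plus strand: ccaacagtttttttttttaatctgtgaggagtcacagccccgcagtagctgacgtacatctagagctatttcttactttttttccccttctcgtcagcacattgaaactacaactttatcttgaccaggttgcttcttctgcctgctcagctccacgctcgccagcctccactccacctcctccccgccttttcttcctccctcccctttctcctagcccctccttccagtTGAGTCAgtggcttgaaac

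The windows of the 2 arterial connexin genes shared the 11 letters TGGGATACCGG, which began at position -151 in Gja4 and -41 in Gja5, counted back from the annotated start. The run was found in 4 of 32851 promoter windows of the same length on either strand, those of Gja4 and Gja5 among them. It was picked as their longest match and looked for after the sequences were seen, so that its rarity is no independent test. Read on opposite strands, Gja1 shared runs of 12 letters with each of the other windows, one of them mostly T and the other made of C and T. The core letters TGGAAA of the NFAT5 motif were absent from the 3 windows on both strands and present in 18.6% of all windows. ACGTG, the core of the hypoxia response element, and TGGGAA, the core bound by the Notch effector RBPJ, were absent as well, and 16.6% and 21.6% of all windows hold them. GGGCGG occurred once in Gja4 and once in Gja5, and 32.7% of all windows hold it. CACCC, the box read by Krüppel-like factors, occurred in Gja5 at 4 places, the last of them overlapping the GC box by its outer base, and 52.0% of all windows hold it. TGAGTCA occurred once, in Gja1 from position -19 to -13, and 4.46% of all windows hold it. These are descriptions of letters in a short window and not of binding sites.

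Nfat5 itself had log2 values of 6.65, 6.58 and 6.30 in controls 1, 3 and 4, against 4.46, 4.48 and 3.89 after the deletion, and fell by 2.23 (SE 0.23, limma adjusted p = 0.00151). Here and below, a difference is the log2 value after deletion minus that of the controls, and p-values were adjusted over the whole array by the Benjamini-Hochberg method. The genotypes differed widely, with 25.6% of all features passing an adjusted p of 0.05, 12.5% higher and 13.1% lower. In 42.0% of all features the groups did not overlap. Replicates lay farther apart in Nfat5(EC)-/- lungs, where the standard deviation was larger for 67.0% of features. The sources used here do not place the Nfat5 probes relative to the floxed part of the gene.

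The connexins did not move together. Gja4 rose 2.97-fold and Gja1 fell 2.45-fold, so that 2 of the 4 members passed the test, in opposite directions, while Gja5 and Gjc1 did not pass. With 25.6% of all features called, a count of 2 in 4 does not set the members apart from the rest of the array.

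Gja4 encodes Cx37, a gap junction protein of arterial endothelium. Control mice 1, 3 and 4 had log2 values of 5.21, 5.46 and 5.41. In the Nfat5(EC)-/- lungs it measured 7.39, 6.42 and 6.97. All Nfat5(EC)-/- lungs lay above all Nfat5fl/fl lungs, and the gap between the groups was wider than the whole range of the controls. The mean rose from 5.36 ± 0.14 to 6.93 ± 0.49 (SD, n = 3 each), a difference of 1.57 (SE 0.26, 95% interval 0.98 to 2.16, limma adjusted p = 0.00410). Of all features, 1.38% had a larger increase. The call was made in each fit that left out 1 array, with differences between 1.34 and 1.82.

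Gja1 encodes Cx43, the most widely expressed connexin. It measured 5.90, 5.81 and 5.77 in the Nfat5fl/fl lungs, close to each other. The Nfat5(EC)-/- lungs of mice 1, 3 and 4 measured 4.72, 5.04 and 3.83, all below the controls and with mouse 4 far below the others. From 5.83 ± 0.06 in controls the mean fell to 4.53 ± 0.63 (SD, n = 3 each), a difference of -1.30 (SE 0.30, 95% interval -1.97 to -0.62, limma adjusted p = 0.0138). Leaving out control mouse 1 or control mouse 3 ended the call (limma adjusted p = 0.0594 and 0.0558), although the differences of -1.26 and -1.30 were close to that over all arrays. Without Nfat5(EC)-/- mouse 4 the difference was smaller at -0.95, and the call was made (limma adjusted p = 0.0153).

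Gja5 encodes Cx40, the partner of Cx37 in arterial endothelium and a connexin of atrial muscle. The Nfat5fl/fl lungs measured 4.59, 4.60 and 4.66, the narrowest spread of the members. In Nfat5(EC)-/- lungs it measured 3.88 in mouse 1, 3.68 in mouse 3 and 4.99 in mouse 4. Thus 2 Nfat5(EC)-/- lungs lay below all controls and 1 lay above them all. The means were 4.62 ± 0.04 and 4.18 ± 0.71 (SD, n = 3 each), a difference of -0.43 (SE 0.32, 95% interval -1.16 to 0.30) that did not pass the test (limma adjusted p = 0.374). Without Nfat5(EC)-/- mouse 4 the difference was -0.84 and passed (limma adjusted p = 0.0199), so that 1 lung decided the call.

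Gjc1 encodes Cx45, which in vessels is mainly a smooth muscle connexin. Its values lay below the array median of 2.98 on all 6 arrays. The Nfat5fl/fl lungs measured 2.30, 2.58 and 2.78 and the Nfat5(EC)-/- lungs 2.20, 2.59 and 2.04. The groups overlapped, and the difference was -0.28 (SE 0.22, 95% interval -0.78 to 0.23, limma adjusted p = 0.417). The old symbol Gjc1 was also used for Gjd3, a separate gene described with the other connexins, and the 2 were kept apart by their gene numbers.

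**Figure D1:**
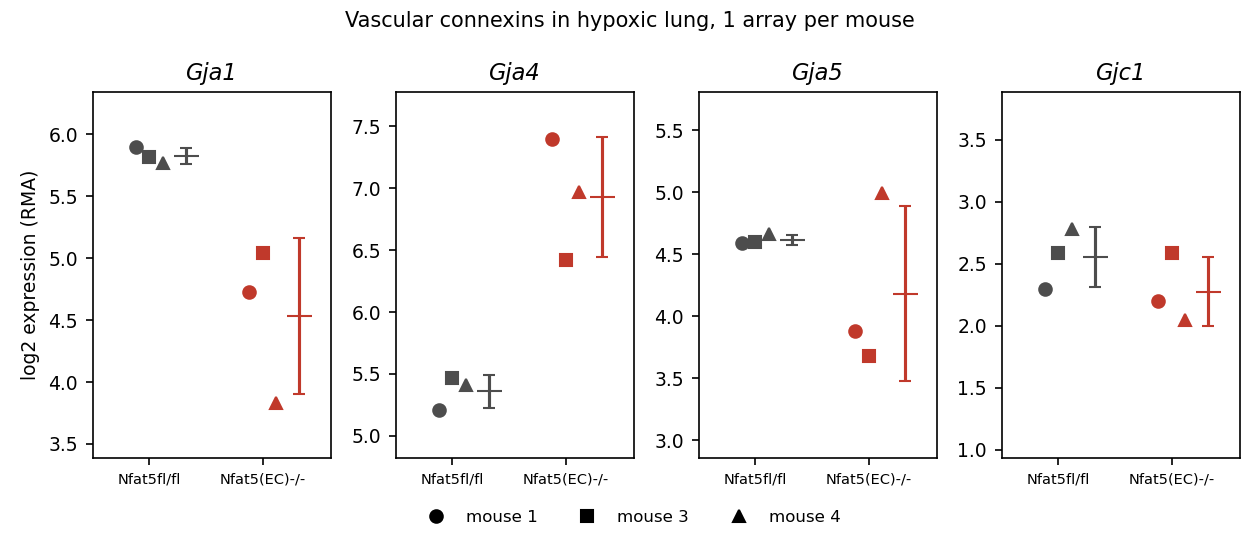
Log2 expression of each vascular connexin on the 6 arrays (y axis, each panel spanning the same number of log2 units), by genotype, with 1 point per mouse and the mean and SD (n = 3) beside the points. Gja4 was between 6.42 and 7.39 in Nfat5(EC)-/- lungs, above all Nfat5fl/fl lungs, Gja1 was below them in all Nfat5(EC)-/- lungs, and Gja5 was on both sides.

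The members were also compared with each other in how they changed within the same lungs, by a test that no pair could pass with so few arrays. Subtracting one log2 value from another on the same array gave the balance of 2 members, and 6 pairs were compared by an exact 2-sided permutation test over the arrays, which cannot go below 0.10 with 3 arrays against 3. The balance of Gja1 to Gja4 moved most. It measured 0.69, 0.35 and 0.36 in Nfat5fl/fl lungs and -2.67, -1.38 and -3.14 in Nfat5(EC)-/- lungs, a difference of -2.86 (exact p = 0.10, adjusted over the pairs 0.15). The balance of Gja4 to Gja5, the arterial pair, was 0.62, 0.87 and 0.75 in controls and 3.51, 2.75 and 1.98 in Nfat5(EC)-/- lungs. These groups did not overlap either, and the difference was 2.003 (exact p = 0.10, adjusted 0.15). The same p-values were reached for Gja4 against Gjc1 (1.85) and for Gja1 against Gjc1 (-1.02). An exact p of 0.10 needs groups that do not overlap, which 42.0% of all single features also showed. Gja1 against Gja5 (-0.86, exact p = 0.40) and Gja5 against Gjc1 (-0.16, exact p = 0.80) overlapped between the groups. Without Nfat5(EC)-/- mouse 4 these differences were -0.11 and -0.68, and without Nfat5(EC)-/- mouse 3 they were -1.37 and 0.25.

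Some endothelial transcripts themselves differed between the genotypes, so the connexins were also set against markers of endothelium. Of 21 measured pan-endothelial markers 7 fell and 4 rose, 11 called in all, beside 25.6% of all features called. Their mean level was 6.93 to 7.10 in Nfat5fl/fl and 6.56 to 6.84 in Nfat5(EC)-/- lungs. All 21 had a mean at or above the array median. Without Nfat5fl/fl mouse 1 or mouse 3, 7 and 6 of them were called. A fit limited to features at or above the array median called 13 of them, beside 6018 of 12881 features. Calcrl, which encodes a receptor for adrenomedullin, fell by 1.92 (SE 0.26, limma adjusted p = 0.00236) and Tek, the angiopoietin receptor, by 2.01 (SE 0.36, limma adjusted p = 0.00539). Cdh5, which encodes VE-cadherin, fell by 1.52 (SE 0.26, limma adjusted p = 0.00440) and Pecam1, the endothelial adhesion molecule CD31, by 1.59 (SE 0.34, limma adjusted p = 0.0109), while Egfl7, a secreted factor of endothelial cells, rose by 1.06 (SE 0.19, limma adjusted p = 0.00551). These 4 falling genes were lowest in Nfat5(EC)-/- mouse 4, as Gja1 was. Other markers called lower ran differently. Emcn measured 4.80, 5.99 and 6.93 in Nfat5(EC)-/- mice 1, 3 and 4. Erg measured 4.52, 5.10 and 5.27, so that both were lowest in mouse 1 and highest in mouse 4.

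Relative to the mean of the 21 pan-endothelial markers Gja4 was -1.72, -1.64 and -1.67 in Nfat5fl/fl lungs. In Nfat5(EC)-/- lungs it was 0.83, -0.42 and 0.39. The groups did not overlap, and the difference of 1.94 was larger than that of Gja4 itself (exact permutation p = 0.10, the smallest possible, adjusted over the members 0.20). For Gja1 the relative values were -1.03, -1.29 and -1.31 against -1.84, -1.80 and -2.75, a difference of -0.92 (exact p = 0.10, adjusted 0.20). The direction of Gja1 depended on the reference, since its difference was 0.22 relative to Cdh5 alone and 0.29 relative to Pecam1 alone, whereas Gja4 was higher by 3.09 and 3.16. Gja4 is a short gene of 2620 bp, while Cdh5 spans 42892 bp, Pecam1 61069 bp and Tek 135891 bp. Egfl7, which rose, spans 11600 bp. Differences tracked gene span across the array, as described below, and the relative values were not adjusted for span. Gja5 differed by -0.06 relative to the marker mean (exact p = 0.90), and Gjc1 by 0.10 (exact p = 0.50). Leaving out 1 array moved Gja5 between -0.50 (without Nfat5(EC)-/- mouse 4) and 0.28 (without Nfat5(EC)-/- mouse 3), so that its sign turned, and Gjc1 between 0.02 and 0.19. The ranges were -1.09 to -0.61 for Gja1, with the smallest difference without Nfat5(EC)-/- mouse 4, and 1.66 to 2.29 for Gja4.

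**Figure D2:**
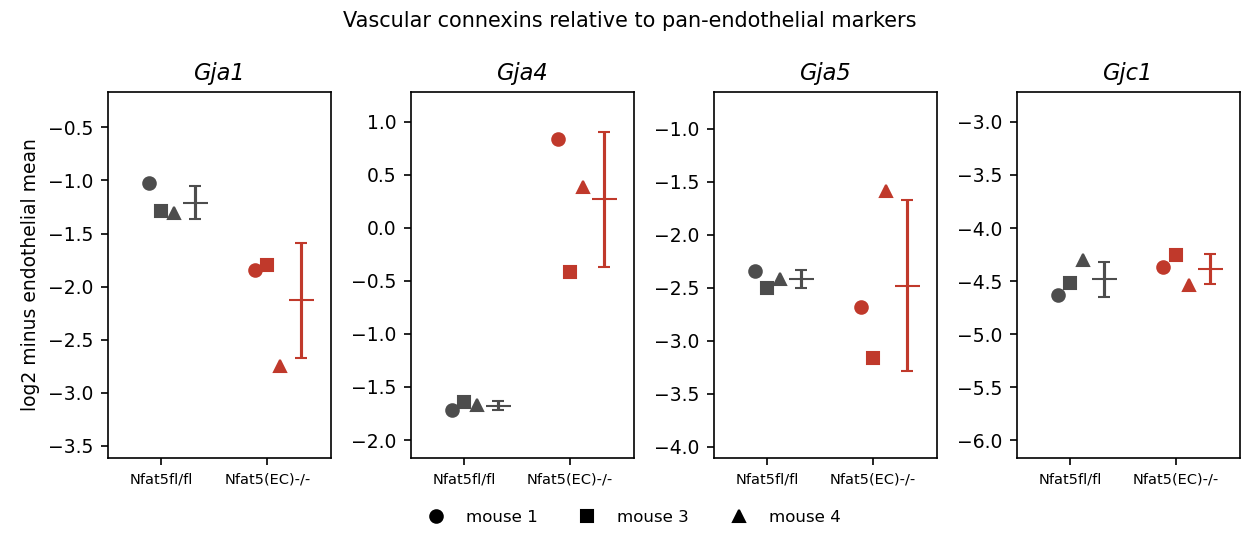
Log2 value of each vascular connexin minus the mean of the 21 measured pan-endothelial markers on the same array (y axis, each panel spanning the same number of log2 units), by genotype, with 1 point per mouse and the mean and SD (n = 3). Gja4 differed by 1.94 without overlap, Gja1 by -0.92 without overlap, and Gja5 and Gjc1 overlapped.

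Genes with short genomic spans, counted from start to end with introns, were more often higher and genes with long spans more often lower across the array, and the members were read against genes of their own span. Gja4 spans 2620 bp. Of the 1969 protein-coding features with spans of 1958 to 4788 bp, 20.2% were called higher and 3.05% lower, with a median difference of 0.26, and 1.68% had a larger increase than Gja4. Among the 941 of them at or above the array median, as Gja4 was, 36.3% were called higher, with a median of 0.59. Gja1 spans 13120 bp, and among the 1969 genes of 12851 to 18475 bp 16.6% were called higher and 10.0% lower, with a median of 0.10. Its decrease thus ran against the tilt of its group, where 96.8% of genes had a higher value. Among the 1233 genes of this group at or above the array median, 24.5% were called higher, with a median of 0.21. Gja5 and Gjc1, with spans of 21233 and 20210 bp, lie in 1 such group, where 13.7% were called higher and 14.6% lower. Nfat5 itself spans 86083 bp, and among genes of 60647 to 113126 bp 32.1% were called lower, with a median of -0.36. After the trend on span was removed from each array, the difference was 1.30 for Gja4 (limma adjusted p = 0.00727) and -1.43 for Gja1 (limma adjusted p = 0.0109). Counts of the gene lists were not set against genes of like span. Small nucleolar RNAs, which have no poly(A) tail, were also higher in Nfat5(EC)-/- lungs, with medians of 7.43, 6.49 and 6.43 against 4.01, 4.20 and 4.15 in mice 1, 3 and 4, and their part in the connexin values was not tested.

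**Figure D3:**
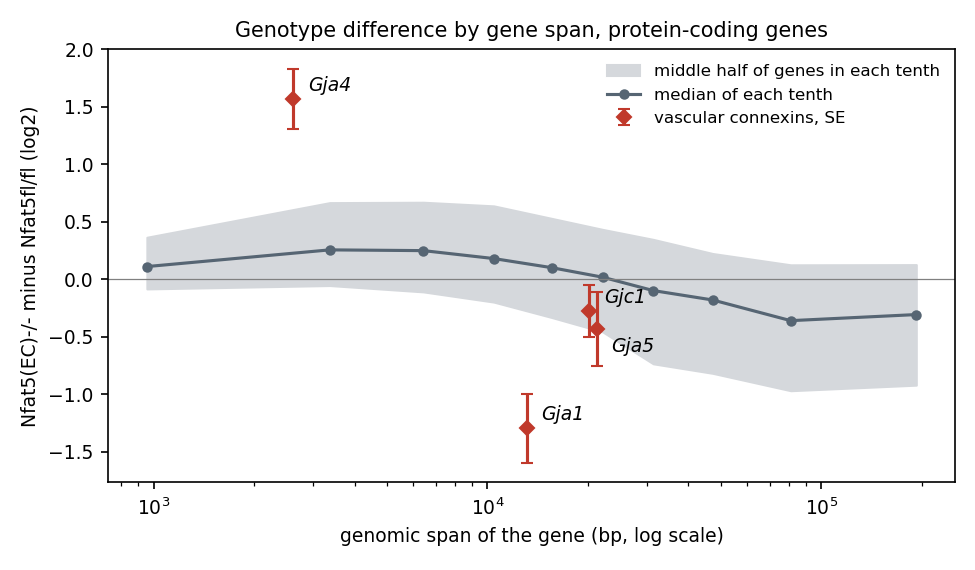
Genotype difference (y axis, log2) against the genomic span of the gene (x axis, bp, log scale) for protein-coding genes in 10 groups of equal size, with the median as a line and the range between the quartiles shaded, and for the 4 vascular connexins with SE. Gja4 at 1.57 and Gja1 at -1.30 lie outside the quartiles of genes of their span.

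Among the rest of the family a single gene was called. Of 12 other connexins measured, 1 was called higher and 0 lower by limma, beside 25.6% of all features called. At an unadjusted p of 0.05 these counts were 2 and 0, beside 9561 of 25428 features. In 3 of the 12 the groups did not overlap, beside 42.0% of all features. The gene called was Gjd3, encoding a connexin of the cardiac conduction system in mice. It measured 3.26, 3.46 and 3.36 in Nfat5fl/fl lungs. In Nfat5(EC)-/- lungs it measured 4.88, 4.57 and 4.74, above all controls, a difference of 1.37 (SE 0.19, limma adjusted p = 0.00246). Its replicates lay closer together than those of Gja4 in the same lungs. Only 3 of these 12 genes had a mean at or above the array median, and the others with such a mean were Gjb2 (0.36, limma adjusted p = 0.453) and Gjb6 (0.24, limma adjusted p = 0.448), connexins of epithelia. The median difference over the 12 was 0.27, beside 0.04 over all features.

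Pannexins, which form membrane channels that release ATP, gave 0 calls of 3 by limma, beside 25.6% of all features called. At an unadjusted p of 0.05, 1 was higher, beside 9561 of 25428 features in either direction. Panx1, the pannexin of vascular cells, measured 3.44, 2.86 and 2.79 in Nfat5fl/fl and 3.38, 3.90 and 3.55 in Nfat5(EC)-/- lungs. These groups overlapped through control mouse 1, and the difference of 0.58 did not pass (SE 0.24, limma adjusted p = 0.111).

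**Figure D4:**
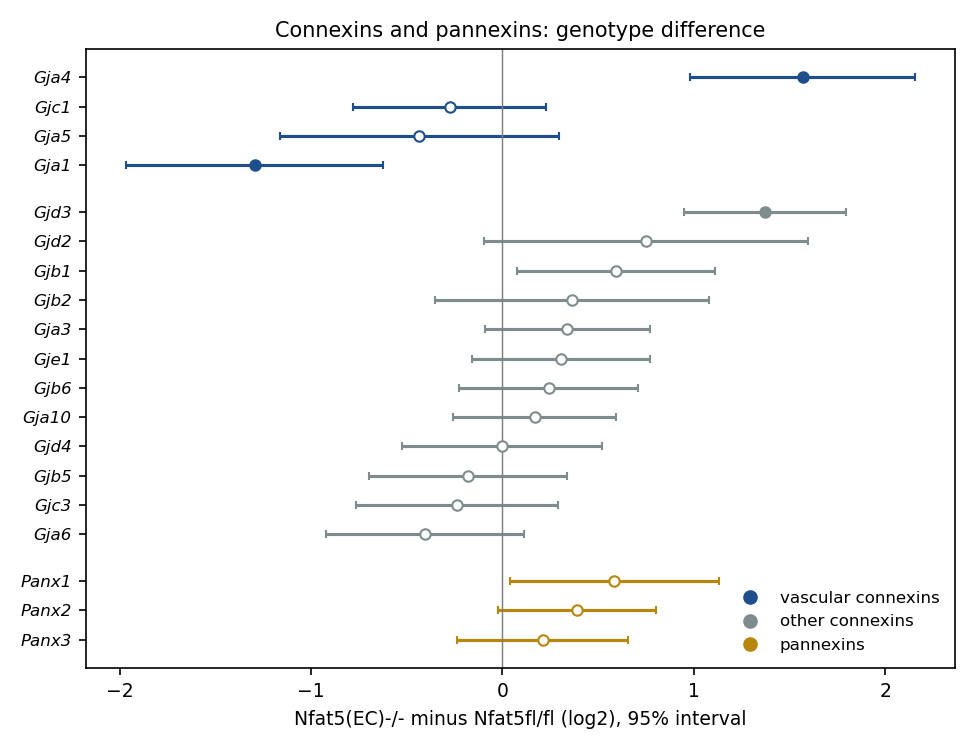
Genotype difference (x axis, log2, with the 95% interval) of the measured connexin and pannexin genes, filled where the limma adjusted p was under 0.05. Gja4 and Gjd3 were higher, Gja1 was lower, and the other intervals belong to genes that did not pass.

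Genes whose products bind, phosphorylate or transport connexins were called in 13 of 22 cases, 5 higher and 8 lower, with a median difference of -0.40, beside 25.6% of all features called. Without Nfat5fl/fl mouse 1 or mouse 3, 7 were called, and without Nfat5fl/fl mouse 4, 8 were. All 22 had a mean at or above the array median. A fit of such features alone called 14 of them, beside 6018 of 12881 features. Dbn1, encoding drebrin, which links Cx43 to actin, rose by 1.26 (SE 0.19), and Src, a kinase that closes Cx43 channels, rose by 1.42 (SE 0.23). Ywhaq, an adaptor of the 14-3-3 family, rose by 1.24 (SE 0.23), and Eps15, an endocytic adaptor that takes part in the removal of Cx43, fell by 1.34 (SE 0.22), with limma adjusted p-values of 0.00318, 0.00366, 0.00595 and 0.00382 for these genes. Outside the naming rule and chosen after the values were seen is Tjp1, encoding ZO-1, the scaffold at the edge of gap junction plaques. It measured 8.63, 8.47 and 8.05 in Nfat5fl/fl and 7.28, 7.21 and 5.28 in Nfat5(EC)-/- lungs (difference -1.79, SE 0.48, limma adjusted p = 0.0253). As for Gja1, the Nfat5(EC)-/- lung of mouse 4 was lowest. Eps15 and Tjp1, called lower, span 107643 and 231686 bp. Dbn1, Ywhaq and Src, called higher, span 14699, 27108 and 47933 bp. After removal of the span trend 11 of the 22 genes of this list were called, beside 5134 of 19686 protein-coding features. Adherens and tight junction genes, a list that shares members with this one, were called in 9 of 13 cases, 7 lower and 2 higher, with a median of -0.90. Without Nfat5fl/fl mouse 1 or mouse 3, 4 of them were called, and 8 in the fit of features at or above the array median. Beside Cdh5, those of smallest p were Jup, encoding plakoglobin (1.20, SE 0.19), and the junctional adhesion molecules Jam2 (-1.13, SE 0.22) and Jam3 (-1.02, SE 0.22), with limma adjusted p-values of 0.00384, 0.00677 and 0.0106.

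Genes known to act upstream of arterial or cardiac connexins were called in 12 of 23 cases, 10 higher and 2 lower, with a median of 0.38. Over all features 12.5% were called higher and 13.1% lower. All 23 had a mean at or above the array median. In a fit of such features alone, 6018 of 12881 were called, 2996 higher and 3022 lower, with 12 of these genes called. The count of 12 moved with the controls used, and 6 were called without Nfat5fl/fl mouse 1 and 3 without Nfat5fl/fl mouse 3. Klf2, a flow-induced transcription factor of endothelium, measured 4.79, 4.47 and 5.40 in Nfat5fl/fl lungs. In Nfat5(EC)-/- lungs it measured 6.55, 6.21 and 6.39 (difference 1.503, SE 0.26, limma adjusted p = 0.00470), again without overlap. Irx3, a transcription factor of the conduction system, differed by 1.05 (SE 0.20, limma adjusted p = 0.00650) and Acvrl1, the endothelial receptor ALK1, by 0.93 (SE 0.19, limma adjusted p = 0.00940). Jag1, a Notch ligand, fell by 0.92 (SE 0.20, limma adjusted p = 0.0115). Klf2 spans 2593 bp, Irx3 3144 bp, Acvrl1 16815 bp and Jag1 35070 bp. After removal of the span trend 11 genes of this list were called, beside 5134 of 19686 protein-coding features. The directions in that fit were not counted, and the part of span in them was not tested.

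Markers of arterial endothelium, where Gja4 and Gja5 are expressed together, gave 6 higher and 2 lower of 22, with a median of 0.05, beside 12.5% and 13.1% of all features. In place of 8 genes, 4 were called without Nfat5fl/fl mouse 1, 2 without Nfat5fl/fl mouse 3 and 5 without Nfat5fl/fl mouse 4. At or above the array median lay 20 of the 22. The fit of such features alone called 8 of them, beside 6018 of 12881 features. Their mean level was 5.10 to 5.29 in Nfat5fl/fl and 5.31 to 5.50 in Nfat5(EC)-/- lungs. Ltbp4 (1.57, SE 0.24), a matrix protein, Sema3g (1.15, SE 0.20), a semaphorin of arteries, and Notch4 (1.01, SE 0.23), an endothelial Notch receptor that is also in the upstream list, were higher, with limma adjusted p-values of 0.00321, 0.00514 and 0.0142. Jag1, in the upstream list as well, was lower (-0.92, SE 0.20, limma adjusted p = 0.0115). The difference of Gja4 was thus as large as that of Ltbp4, and Gja5 was not called.

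Other cell types that express connexins were compared by their marker lists, whose part in the connexin values was not tested. The counts of these lists, here and in the next paragraph, stand beside 12.5% of all features called higher and 13.1% lower. In the fit of features at or above the array median, 6018 of 12881 were called. Smooth muscle markers gave 1 higher (Smtn, 1.03) and 1 lower (Itga8, -1.18) of 12, with mean levels of 5.05 to 5.33 in Nfat5fl/fl and 5.18 to 5.37 in Nfat5(EC)-/- lungs. Pericyte markers gave 3 higher and 3 lower of 10, with levels of 4.94 to 5.02 and 4.93 to 5.24. Those of smallest p were Postn (-1.72), Notch3 (1.69), Cspg4 (1.69) and Cox4i2 (1.09). Cardiac muscle, which in mice also sleeves the pulmonary veins, was read by markers that gave 4 higher and 1 lower of 12, with levels of 4.18 to 4.41 and 4.39 to 4.73. Myl4 (1.09), Nkx2-5 (0.90) and Myh6 (0.85) were higher and Ryr2 (-0.91) lower. The Nfat5(EC)-/- lungs with the highest cardiac level were those of mouse 1 (4.73) and mouse 4 (4.64), of which mouse 4 alone had a high Gja5.

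Fibroblast markers gave 4 higher and 1 lower of 10, with levels of 6.40 to 6.51 and 6.46 to 6.63, and those of smallest p were the collagens Col1a1 (1.34) and Col13a1 (1.349), Pi16 (1.18) and the proteoglycan Dcn (-1.36). Alveolar type 1 markers gave 1 higher and 4 lower of 8, with levels of 7.92 to 8.24 against 7.42 to 7.86, lowest in mouse 4 as for Gja1. Among them Aqp5, a water channel, was higher (1.40) and Rtkn2 (-1.09), Akap5 (-1.62) and Emp2 (-0.97) were lower. Alveolar type 2 markers gave 1 higher (Napsa, 1.09) and 2 lower (Sftpa1, -1.04, and Lamp3, -1.17) of 8, with levels of 9.01 to 9.17 against 8.57 to 9.01. Alveolar macrophage markers gave 1 higher (Car4, 0.63) and 1 lower (Mrc1, -1.47) of 7, with levels of 4.69 to 4.81 against 4.17 to 4.44. Mesothelial markers gave 1 higher (Msln, 1.55) and 0 lower of 6 by limma, with levels of 4.79 to 5.10 against 5.33 to 5.43. With the p-value left unadjusted, 3 were higher and 0 lower at 0.05, beside 9561 of 25428 features in either direction. Smtn and Itga8 were not called without Nfat5fl/fl mouse 3, where 1 cardiac, 3 fibroblast, 2 alveolar type 1 and 1 alveolar macrophage markers were called. Without Nfat5fl/fl mouse 1, 3 cardiac markers were called.

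The genes whose pattern over the 6 arrays was most like that of each connexin were found among 11385 protein-coding features at or above the array median. Likeness was the mean absolute difference between the deviations of the genes from their own Nfat5fl/fl means. Since the genes were picked for likeness over these same arrays, a shared order of mice largely follows from the choice. For Gja4 they were Ltb (0.06), Nfkb2 (0.07) and Psen2 (0.08), that is lymphotoxin beta, a subunit of NF-kappaB and presenilin, a protease subunit that cleaves Notch. Ltb measured 5.51, 4.65 and 5.24 in Nfat5(EC)-/- lungs, in the same order of mice as Gja4. For Gja1 they were Stx17 (0.06), a syntaxin of autophagosomes, 1810030O07Rik (0.06) and Gatad2b (0.06), a subunit of a chromatin remodeller. Each of these was lowest in the Nfat5(EC)-/- lung of mouse 4. For Gja5 they were Map3k12 (0.08), a kinase of neurons, Psma4 (0.09), a proteasome subunit, and Hsd11b1 (0.10), which activates glucocorticoids, all with mouse 4 above the other Nfat5(EC)-/- lungs. For Gjc1 they were Pea15a (0.05), Tent5c (0.05) and Mapkbp1 (0.06). No connexin was among the genes nearest to another, but connexins below the array median, Gjc1 among them, were not candidates. The members themselves lay 0.45 to 1.51 apart on this measure, closest for Gja5 and Gjc1 and farthest for Gja1 and Gja4.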

How the data were processed

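RNA of 1 lung lobe per mouse was labelled with biotin and measured on Affymetrix arrays. The authors deposited log2 values made with RMA per the sample labels, and the sources used here name neither its version nor the probe sets. All 6 columns share 1 distribution (sorted values differ by at most 0.00183), which hides any change in total RNA, and the number of arrays limits the precision. The platform annotation gave 1 symbol for 24705 of 25428 features, updated by gene number through the RefSeq table of GRCm38.p6, the source of gene spans and promoters.

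Mice were grouped by label. limma 3.58.1 in R 4.3.3 (lmFit and eBayes, 2-sided, no filter, no covariate) was fitted to all arrays, with calls at an adjusted p of 0.05 and moderated 95% intervals, and was tested on simulated data. Balances were tested by exact permutation over arrays. The members, gene lists and tests were chosen with earlier results of these data known. Genes were named by rule, namely the members, called connexins and pannexins, Gja and Gjb genes at or above the array median, Nfat5, Cdh5, Pecam1, up to 4 called genes of smallest p per list, and the 3 genes most like each member. Exceptions (Tjp1, Panx1, Emcn, Erg) were chosen after their values were seen. Of 16 other connexins listed, 12 were measured. Alternatives were a filter at the array median, the mouse number as a replicate block, other normalizations and variance models, array weights, protein-coding features only, removal of the span trend, and leaving out each array. Motifs were searched on both strands of 32851 promoter windows. Plots used matplotlib 3.10.9.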

Additional observations from a re-analysis of the deposited data

How the results depend on the processing

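All 4 members kept the sign of their difference under every alternative run. Gja4 was called in 15 of 16 alternatives and Gja1 in 13 of 16, and Gjc1 in 0 of 15, where the filter left it out. Without variance moderation the values of 1.57 for Gja4 and -1.30 for Gja1 did not pass (limma linear model, adjusted p = 0.0584 and 0.108), 1984 features were called, and 22 of the 173 genes of the other lists against 73 in the reported fit. Leaving out each array in turn gave -1.55 to -0.95 for Gja1, -0.84 to -0.18 for Gja5, 3017 to 6365 features called against 6510, and 36 to 79 list genes called, with the lowest counts without Nfat5fl/fl mouse 3. Without Nfat5fl/fl mouse 1 the counts were 3273 and 46. Relative to Cdh5 alone the signs of Gja1 (0.22) and Gja5 (1.08) turned, as they did relative to Pecam1 alone (0.29 and 1.16). The mouse number as a replicate block gave 6310 features called and changed the call of 0 members (limma adjusted p = 0.0159 for Gja1 and 0.00979 for Gja4); arrays with the same number did not deviate together (correlations of 0.06, -0.01 and 0.01 over features), so the numbers were not taken as pairs. Signal over background was not measured here, so the precision of low values such as those of Gjc1 is unknown.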
